A study of Arabis alpina with 19 samples.

Results

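The step from 7 to 30 weeks in the perennial zone of the Arabis alpina lateral stem was described from 6 of the 19 RNA-sequencing libraries of the series. These are the 3 libraries of group III_PZ, taken at 7 weeks, and the 3 of group IV_PZ, taken at 30 weeks, chosen by their labels and not by any measured value. In both groups the first internode of the perennial zone (PZ) was taken whole, from side branches at the first and the second node of the main axis. Plants of all 6 groups carried pep1-1 and grew in long days at one temperature, so the genotype does not differ between the groups. The remaining groups serve here as reference levels and in comparisons among themselves, and they entered the fit that made the calls. They are the same internode at 4 weeks (I_PZ, 3 libraries) and 5 weeks (II_PZ, 3 libraries), and 2 internodes of the annual zone (AZ) at 30 weeks, a short one (IV_AZ_si, 4 libraries) and one next to the inflorescence (IV_AZ_if, 3 libraries). Each replicate stood for 12 plants, and the labels do not say whether their material was pooled. They give no harvest or sequencing batch either, so age and any batch that follows it cannot be told apart.

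Arabis alpina is a perennial of the cabbage family. Its PEP1 gene is the counterpart of the Arabidopsis flowering repressor FLC, and pep1 mutants flower without a cold period. Along a lateral stem, the part at the base stays alive for the next season, while the flowering part above it dies back after seed set. In the perennial part a cambium, the sheet of dividing cells between wood and bast, thickens the stem and adds parenchyma that stores starch and lipid, and cytokinin is a plant hormone known to promote cambial division. The submitters' title places the series in this question.

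The 6 libraries held between 21522539 and 25492706 estimated counts; the deepest library was in IV_PZ and the shallowest in III_PZ. Levels are given as TPM, which divides the count of a target by its effective length and scales each library to the same total. A target is a sequence of the kallisto reference, named by an identifier only. No gene name stands beside these identifiers in the files, so neither the labelled tissue nor any pathway could be checked against marker genes, and the cytokinin, cambium, cell wall and storage genes could not be followed. In whole internodes, fewer cells of a type and less RNA per cell cannot be told apart.

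Replicates were close to each other and far from the other age. Between the 3 libraries of III_PZ, 6.66% to 8.90% of the TPM was assigned to different targets, and between those of IV_PZ 7.09% to 9.09%. Across the ages it was 27.3% to 30.8%. III_PZ replicate 2 was the library of its group nearest to IV_PZ, at 27.3% to 27.6%, against 29.9% to 30.8% for III_PZ replicates 1 and 3. The spread between replicates of a target was of like size at both ages, with a median SD of 0.146 in log2 CPM, counts scaled to library size, in III_PZ and 0.170 in IV_PZ. Targets with an SD of at least 1 made up 3.60% of those tested in III_PZ and 6.06% in IV_PZ.

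Most tested targets changed between 7 and 30 weeks, by many small rises and by falls that were often large. Of 23528 targets tested, 6419 rose (27.3%) and 6885 fell (29.3%), 56.5% in all at an adjusted p under 0.05 in edgeR's quasi-likelihood test. For 14705 targets (62.5%) the libraries of the groups did not overlap in TPM. The median rise was 1.61-fold and the median fall 2.46-fold. Among changes under 1.5-fold there were 2622 rises and 1553 falls, and between 1.5-fold and 2-fold 1996 rises and 1253 falls. The balance turned beyond 2-fold, with 1313 rises and 1602 falls up to 4-fold, and 258 rises and 902 falls between 4-fold and 8-fold. Between 8-fold and 32-fold there were 161 rises and 893 falls, and beyond 32-fold 69 rises and 682 falls. Of the 6885 falls 463 ended with no count in IV_PZ, and of the 6419 rises 41 started with none in III_PZ. Fitted folds of these targets depend on the offset added to a count of 0. With them set to the smallest change that a floor of 3 counts over a group allows, the median log2 fold change of falls of at least 8-fold was -3.93 in place of -4.62, and that of such rises 3.79 in place of 4.14. The excess of rises among changes under 2-fold, 4618 against 2806, narrowed to 3805 against 3192 with size factors of the TPM scale. It narrowed to 4217 against 3922 in limma-trend on log2(TPM + 1).

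**Figure D1:**
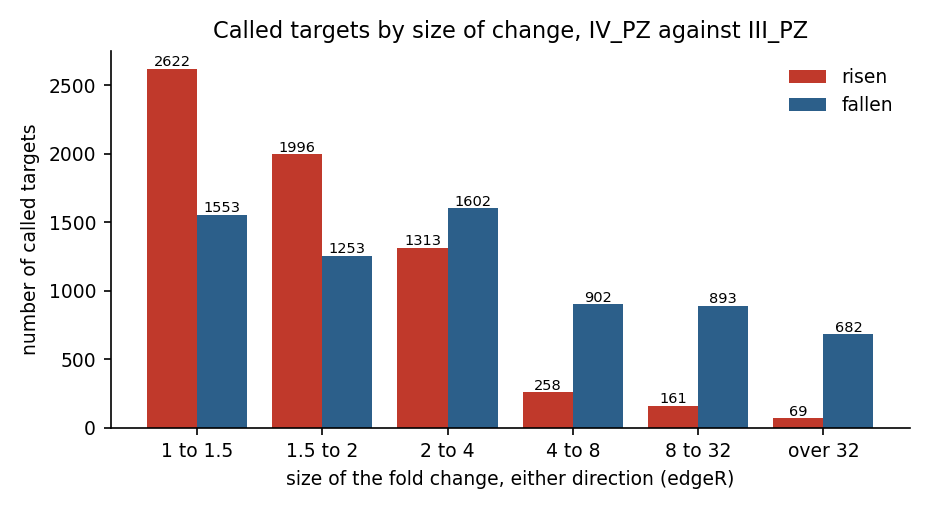
Number of called targets (vertical axis) in classes of fold change size (horizontal axis) for IV_PZ against III_PZ, with rises in red and falls in blue. Rises outnumbered falls below 2-fold (2622 and 1996 against 1553 and 1253), and falls outnumbered rises in every class above it, by 682 to 69 beyond 32-fold.

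Among scarce targets falls were more frequent than rises, and among the most abundant ones both were frequent. Of the 2320 tested targets with a mean under 1 TPM over all libraries, 25.3% fell and 11.6% rose. Of the 7871 targets between 1 and 10 TPM, 30.0% fell and 22.7% rose. From 10 to 100 TPM the order was turned, with 32.6% of 11559 targets risen and 28.8% fallen. In this class falls of at least 2-fold were still the more common ones, 1420 against 759 rises. Between 100 and 1000 TPM 33.2% rose and 33.9% fell, and above 1000 TPM 35 of 75 targets rose and 27 fell. Scarce targets carry fewer counts, which limits the calling of small changes in them. With size factors of the TPM scale 5300 targets rose and 7544 fell in all. The abundance classes were not counted on that scale.

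**Figure D2:**
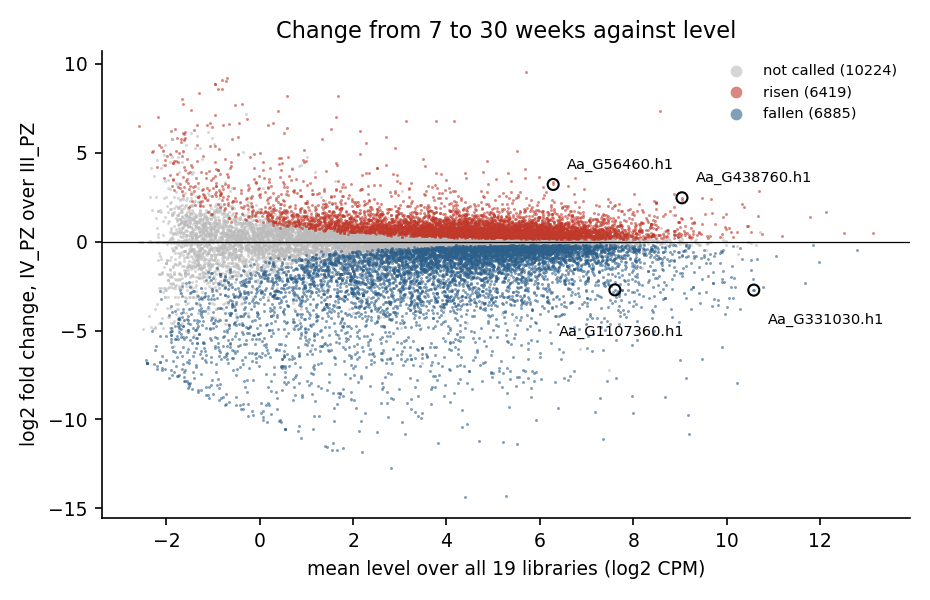
Log2 fold change of IV_PZ over III_PZ (vertical axis) against mean level over the 19 libraries in log2 CPM (horizontal axis), 1 point per tested target, with 6419 risen targets in red, 6885 fallen in blue and 10224 not called in grey. The cloud reaches further down than up. The 4 circled targets, described in the text, had the largest changes in TPM among called targets with whole counts and no overlap between the ages.

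Fewer targets were detected in IV_PZ than in III_PZ. The libraries of III_PZ had a count for 23857, 24846 and 24826 targets, and those of IV_PZ for 23300, 23154 and 23361. The ranges of the groups did not overlap, and the means were 24510 ± 565 and 23272 ± 106 (SD, n = 3 each; exact permutation test, two-sided, p = 0.1, the smallest that 3 against 3 libraries allow). At a level of at least 1 TPM the means were 21229 ± 151 and 20065 ± 13.9 (SD, n = 3 each). The total count was not lower in IV_PZ, at 74071394 over the group against 68194616 in III_PZ.

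Among tested targets with at least 5 TPM in one group, 61 had no count in any IV_PZ library and 8 had none in any III_PZ library. Over all targets, tested or not, these numbers were 113 and 54. A count of 0 over a group allows up to 3 counts, or 0.0405 CPM in IV_PZ and 0.0440 CPM in III_PZ, for counting error only. Of the 61 targets without a count at 30 weeks, 58 were called as fallen, against 29.3% of all tested targets. The same counts chose these targets, so the call follows largely from the choice. In III_PZ 56 of the 61 had a count in all 3 libraries. The median of the 61 there was 10.7 TPM and their highest mean 219 TPM. At 30 weeks 42 of the 61 were at 1 TPM or more in IV_AZ_si and 34 in IV_AZ_if, as were 87.5% and 86.5% of all tested targets. In the younger perennial zone 37 were at that level in I_PZ and 38 in II_PZ, against 87.0% and 86.3% of all tested targets. None of the 61 was without a count in all 4 other groups. Of the 8 targets that appeared, also chosen by these counts, 7 were called as risen, against 27.3% of all tested targets. Of the 8 targets 3 had no count in any of the other groups. Without III_PZ replicate 2 the number of targets that appeared was 20, and without III_PZ replicate 3 it was 13.

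The targets that rose at least 2-fold, 1801 of those tested (7.65%), took up a small share of the transcripts at 7 weeks and a much larger one at 30 weeks. They held 7.05%, 7.53% and 7.14% of the TPM in the libraries of III_PZ and 23.6%, 23.7% and 23.1% in those of IV_PZ. In counts, which are not divided by length, the share was 5.88% ± 0.097 and 17.6% ± 0.17 (SD, n = 3 each). These values chose the targets, and no test is given for them. The other groups entered the fit that made the calls, through its filter, scaling and spread, but not the contrast. At 4 weeks the share was 6.89% ± 0.060 of the TPM and at 5 weeks 6.68% ± 0.12 (SD, n = 3 each), close to the values at 7 weeks. In the annual zone at the same age as IV_PZ it was 10.9% ± 0.80 in IV_AZ_si (SD, n = 4) and 8.56% ± 0.28 in IV_AZ_if (SD, n = 3). Every library of IV_AZ_si lay above the highest of IV_AZ_if, at 8.74%. Targets that rose at least 8-fold held 2.41% of the TPM in IV_PZ. For them the order of the annual internodes was turned in TPM, largely through Aa_G56460.h1. IV_AZ_si had 0.44% ± 0.044 (SD, n = 4) and IV_AZ_if 0.806% ± 0.033 (SD, n = 3). In counts it was not turned, at 0.132% in IV_AZ_si and 0.102% in IV_AZ_if. Aa_G56460.h1, with an effective length of 15.9 bases, had a mean of 6053 TPM in IV_AZ_if and 1934 TPM in IV_AZ_si. The median target of this list was at 0.798 TPM in IV_AZ_si and 0.322 TPM in IV_AZ_if.

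The targets that fell at least 2-fold, 4079 of those tested (17.3%), went from a large share of the transcripts to a small one. They held 25.3%, 21.9% and 25.7% of the TPM in III_PZ and 4.29%, 4.43% and 4.53% in IV_PZ, which again chose them. In counts the share was 20.6% ± 0.36 and 4.62% ± 0.11 (SD, n = 3 each). Before that it was 20.0% ± 0.43 of the TPM at 4 weeks and 24.3% ± 1.4 at 5 weeks (SD, n = 3 each). At 30 weeks it was 15.1% ± 1.1 in IV_AZ_si (SD, n = 4) and 20.6% ± 0.96 in IV_AZ_if (SD, n = 3), and each of these 7 libraries lay above the libraries of IV_PZ. The median fallen target of this list was at 8.24 TPM in III_PZ, 1.25 TPM in IV_PZ, 4.51 TPM in IV_AZ_si and 5.80 TPM in IV_AZ_if.

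**Figure D3:**
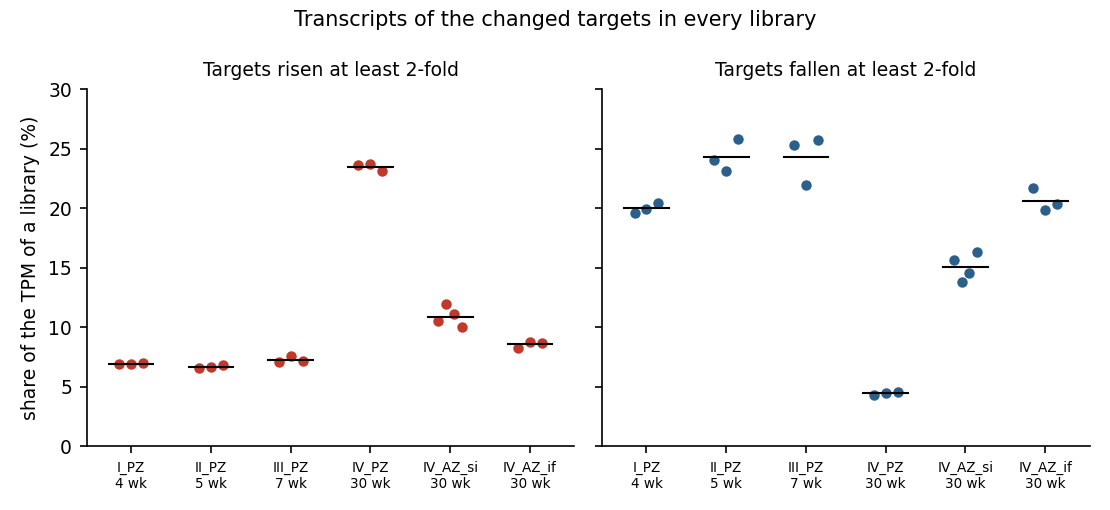
Share of the TPM of each library (vertical axis, %) held by the 1801 targets that rose at least 2-fold (left, red) and the 4079 that fell at least 2-fold (right, blue) between III_PZ and IV_PZ, by group. Points are libraries and short lines are group means. The distance of IV_PZ from III_PZ (23.5% against 7.24%, and 4.42% against 24.3%) chose the targets. Of the annual internodes, IV_AZ_si (10.9% and 15.1%) lies nearer to IV_PZ than IV_AZ_if (8.56% and 20.6%) for these lists.

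Of the most strongly changed targets, a smaller share reached 1 TPM in each other group than of all tested targets. Of the 230 targets that rose at least 8-fold (0.978% of those tested), 156 reached a mean of 1 TPM in IV_PZ, 106 (46.1%) were at that level in IV_AZ_si and 81 (35.2%) in IV_AZ_if. At 4 weeks 61 (26.5%) were at that level, and at 5 weeks 60 (26.1%). For 110 of the 230 (47.8%) none of the groups I_PZ, II_PZ, IV_AZ_si and IV_AZ_if was at 1 TPM, against 7.71% of all tested targets. A rise of at least 8-fold favours targets that are low in III_PZ, where 27.0% of the 230 were at 1 TPM or more. Of the 1575 targets that fell at least 8-fold (6.69%), 1181 were at 1 TPM or more in III_PZ and 312 still in IV_PZ. In the annual zone 936 of them (59.4%) were at that level in IV_AZ_si and 967 (61.4%) in IV_AZ_if, and in the younger perennial zone 1061 (67.4%) in I_PZ and 1026 (65.1%) in II_PZ. Of all 23528 tested targets, 87.0% were at 1 TPM or more in I_PZ, 86.3% in II_PZ, 87.5% in IV_AZ_si and 86.5% in IV_AZ_if.

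The same targets were then followed in the comparison of the 2 annual internodes, which shares no library with the step from 7 to 30 weeks, although both come from 1 fit with 1 estimate of spread. Of all tested targets, 24.8% were higher and 23.9% lower in IV_AZ_si than in IV_AZ_if (edgeR, adjusted p under 0.05). Of the 6419 risen targets, 2990 (46.6%) were higher and 730 (11.4%) lower in IV_AZ_si. Of the 6885 fallen targets, 941 (13.7%) were higher and 3029 (44.0%) lower. Targets not called between 7 and 30 weeks had 18.6% higher and 18.1% lower. The median log2 difference, IV_AZ_si minus IV_AZ_if, was 0.28 for risen, -0.31 for fallen and 0.05 for all tested targets. The short internode thus differed from the one near the inflorescence in the direction in which the perennial zone had changed, for risen and for fallen targets alike. With size factors of the TPM scale the shares of risen targets were 60.5% higher and 8.02% lower, against 33.2% and 18.6% of all tested targets. Those of fallen targets were 19.5% and 35.3%. The counts kept these directions when each of the 13 libraries of these 4 groups was left out in turn, with 2399 to 2836 risen targets higher and 2730 to 3217 fallen targets lower.

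The step from 4 to 5 weeks, which also shares no library with the later step, gave other shares. Of all tested targets 9.33% were higher and 6.78% lower in II_PZ than in I_PZ. Of the risen targets 10.3% were higher and 11.2% lower, and of the fallen targets 12.6% were higher and 4.88% lower. These counts moved with single libraries, as did those over all tested targets, and the shares moved with the scale. With size factors of the TPM scale 7.32% of risen targets were higher and 15.5% lower, against 6.44% and 9.53% of all tested, and fallen targets had 9.64% and 7.90%. Fallen targets called higher numbered 870, but 551 when I_PZ replicate 2 was left out and 507 when II_PZ replicate 3 was. Fallen targets called lower numbered 336, and 207 and 129 without these libraries. Risen targets called higher numbered 660, and 423, 383 and 351 in the absence of I_PZ replicate 1, I_PZ replicate 2 and II_PZ replicate 3. Those called lower numbered 718, and 472, 443 and 427. Over all tested targets 5.95%, 5.44% and 4.84% were higher without these libraries, and 4.39%, 4.05% and 3.25% lower.

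The gain and the loss of transcripts were spread over many targets, with a few large contributions. Summed over all targets, 28.4% of the TPM moved from targets with a lower mean in IV_PZ to targets with a higher one. The 10 targets with the largest gain made up 19.8% of the gain, and the 10 with the largest loss made up 29.6% of the loss. The 100 largest made up 47.4% and 47.3%, and the 1000 largest 78.1% and 74.5%. The 2 largest alone made up 5.93% of the gain and 14.3% of the loss, with median lengths of 477 and 160.5 bases. In shares of TPM short targets weigh more than they do in counts. Of the 10 most abundant targets of III_PZ 3 were among the 10 of IV_PZ, and all 7 that left were called as fallen. The levels that chose these 7 also made the call, so it follows largely from the choice. Of the 100 most abundant, 64 were shared. Of the 36 that left, 26 were called as fallen, and all 36 that entered as risen. These calls too follow largely from the choice. Of all tested targets 29.3% were called as fallen and 27.3% as risen.

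How concentrated the transcripts were depended on the scale. The 10 most abundant targets of each library held 11.6%, 9.06% and 11.9% of the TPM in III_PZ and 7.80%, 7.68% and 7.98% in IV_PZ. The means were 10.9% ± 1.58 and 7.82% ± 0.149 (SD, n = 3 each; exact permutation test, two-sided, p = 0.1, the smallest possible here). In counts the order was turned, with 4.05% ± 0.296 in III_PZ and 5.64% ± 0.152 in IV_PZ (SD, n = 3 each; exact permutation test, two-sided, p = 0.1). Targets with an effective length under 50 bases, 5659 of 34220, weighed very differently on these scales. They received 0.682% to 0.743% of the counts in III_PZ but 27.4% to 28.6% of the TPM, and 0.729% to 0.798% and 26.5% to 28.9% in IV_PZ. They filled 6 of the 10 top places by TPM in each III_PZ library and 3 or 4 in IV_PZ. Among the other targets alone, the 10 most abundant held 6.16% to 6.78% of their TPM in III_PZ and 9.59% to 10.3% in IV_PZ. The 100 most abundant targets held 24.4% ± 1.54 of the TPM in III_PZ and 25.3% ± 0.958 in IV_PZ (SD, n = 3 each), which overlapped (exact permutation test, p = 0.5). In counts they held 13.7% ± 0.394 and 16.3% ± 0.193 (SD, n = 3 each; p = 0.1, exact permutation test).

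**Figure D4:**
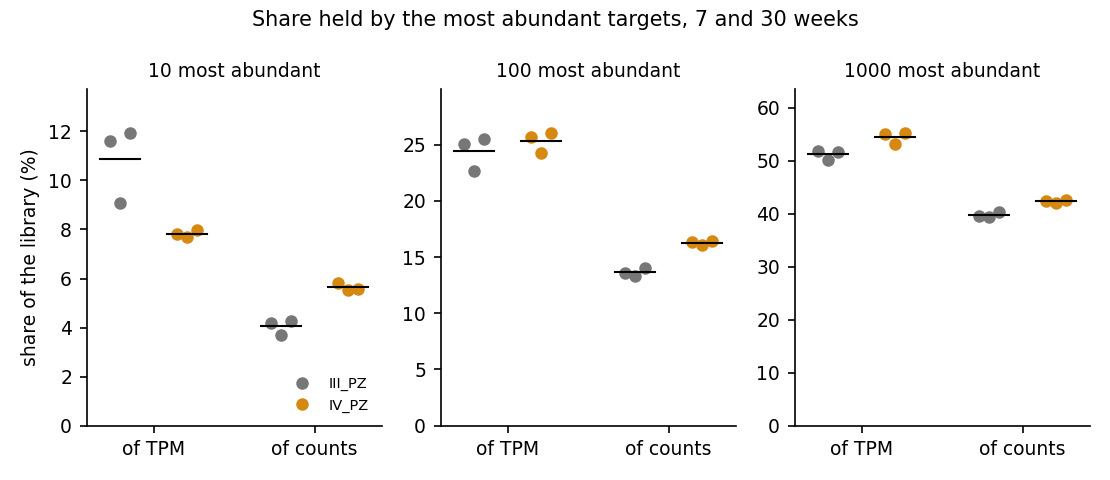
Share of a library (vertical axis, %) held by its 10, 100 or 1000 most abundant targets, ranked and summed as TPM (left pair of each panel) or as counts (right pair), with III_PZ in grey and IV_PZ in orange. Points are libraries and short lines are group means. For the 10 most abundant the order of the groups turns between TPM (10.9% and 7.82%) and counts (4.05% and 5.64%).

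The targets with the largest changes in TPM, chosen for that change, show several courses over the stem's life. They were taken among called targets with whole counts in every library and no overlap between the ages. Their calls and their lack of overlap follow from that choice. Aa_G438760.h1, of 336 coding bases, was at 2034, 1618 and 1786 TPM in III_PZ and at 9121, 8695 and 10510 TPM in IV_PZ. By the choice, every library at 30 weeks was above every one at 7 weeks. In counts the target had 8257 to 10461 and 53087 to 64732. Its log2 fold change was 2.47 ± 0.80 (SE; adjusted p = 0.0140, edgeR), with all 3 libraries higher. The call was lost without III_PZ replicate 2, with an adjusted p of 0.0507 in edgeR. It was also lost in edgeR's test against a fold of 2 (adjusted p = 0.0972). The lowest and highest adjusted p in edgeR or the other tools, over 18 alternatives, were 2.94e-07 and 0.0972. All 19 libraries share the estimate of spread, and I_PZ replicate 3 held 308 TPM against 15.6 and 15.8 TPM in its group mates. With only the 6 libraries of both ages in the edgeR fit the log2 fold change was 2.44 (adjusted p = 2.94e-07). At 30 weeks this target was at 2059 to 2536 TPM in IV_AZ_si and at 132 to 462 TPM in IV_AZ_if. That is a log2 difference of 3.01 ± 0.80 between these internodes (SE; adjusted p = 0.00485, edgeR).

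Aa_G56460.h1, of 198 coding bases, was at 768, 1005 and 812 TPM in III_PZ and at 7222, 8834 and 6609 TPM in IV_PZ. The groups lay far apart, and the log2 fold change in edgeR was 3.22 ± 0.15 (SE; adjusted p = 2.9e-11). With an effective length of only 15.9 bases, these levels rest on 459 to 596 counts at 7 weeks and 4732 to 6270 at 30 weeks. Its TPM depends strongly on that length, which its fold change does not. In the annual zone it had the opposite order from Aa_G438760.h1, with 1465 to 2457 TPM in IV_AZ_si and 5675 to 6338 TPM in IV_AZ_if, a log2 difference of -1.79 ± 0.13 (SE; adjusted p = 9.11e-09, edgeR). Its libraries of IV_AZ_if lay just under those of IV_PZ, so this target was high at 30 weeks in the perennial zone and near the inflorescence, and lower in the short internode.

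Aa_G1107360.h1, of 165 coding bases, was the top target by TPM at 4, 5 and 7 weeks. It was at 33585, 21575 and 34172 TPM in III_PZ and at 4904, 3742 and 4216 TPM in IV_PZ. III_PZ replicate 2 was the lowest of its group, though above all of IV_PZ as the choice required. The target's log2 fold change was -2.71 ± 0.35 (SE; adjusted p = 4.31e-06, edgeR). Its effective length was 8.65 bases, so that 2.98% of the TPM in III_PZ came from 0.0444% of the counts. Aa_G331030.h1, of 402 coding bases, was at 11830, 7476 and 11837 TPM in III_PZ and at 1632, 1433 and 1388 TPM in IV_PZ. Within III_PZ it was again lowest in replicate 2. Its log2 fold change was -2.72 ± 0.41 (SE; adjusted p = 1.91e-05, edgeR). With an effective length of 203 bases it drew 56525 to 102581 counts per library in III_PZ and 12666 to 14556 in IV_PZ. It took 0.364% of all counts at 7 weeks and 0.0543% at 30 weeks.

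Both fallen targets followed the same course in the groups outside the contrast that chose them. Aa_G1107360.h1 had a mean of 11493 TPM in I_PZ, 33965 TPM in II_PZ, 670 TPM in IV_AZ_si and 1937 TPM in IV_AZ_if. Aa_G331030.h1 had 3756, 11028, 270 and 665 TPM in the same order. From 4 to 5 weeks both rose by 1.65 on the log2 scale (SE 0.34 and 0.39; adjusted p = 0.00295 and 0.00775, edgeR). Without II_PZ replicate 3 that of Aa_G331030.h1 was 1.34 (adjusted p = 0.0524, edgeR). Both were lower in IV_AZ_si than in IV_AZ_if, with log2 differences of -1.68 ± 0.33 and -1.45 ± 0.36 (SE; adjusted p = 0.000442 and 0.00277, edgeR). The ratio of the TPM of Aa_G1107360.h1 to that of Aa_G331030.h1 stayed between 2.17 and 3.46 in all 19 libraries. Both had whole counts in every library.

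**Figure D5:**
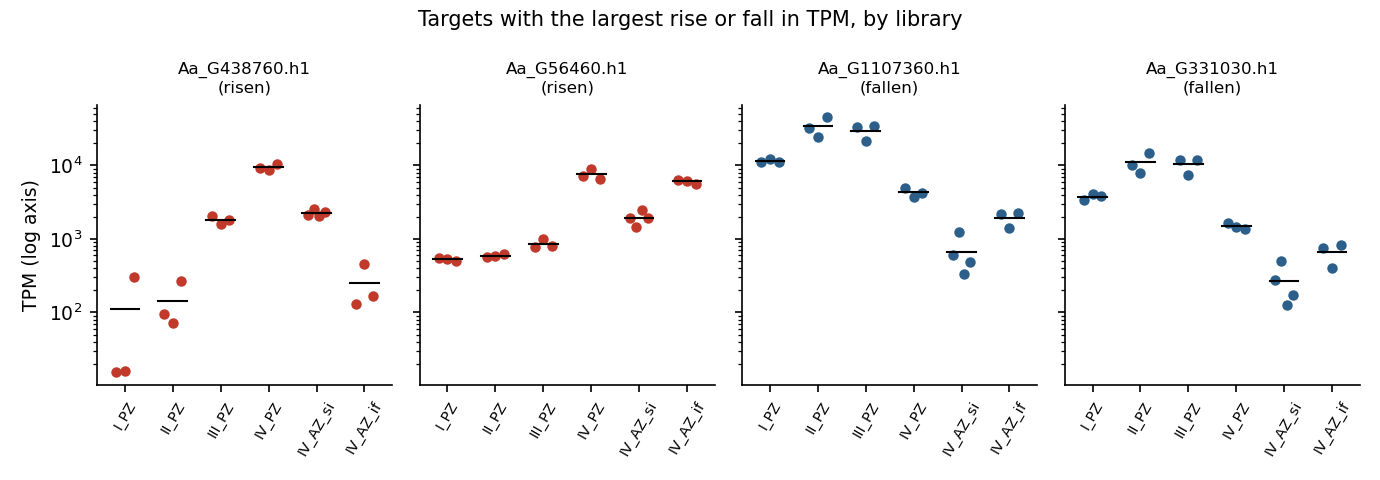
TPM on a log axis (vertical) of the called targets with the largest rise (Aa_G438760.h1 and Aa_G56460.h1, red) and fall (Aa_G1107360.h1 and Aa_G331030.h1, blue) in TPM from III_PZ to IV_PZ among those with whole counts, by group. Targets whose libraries overlapped between III_PZ and IV_PZ were left out of the choice. Points are libraries and short lines are group means. Within the perennial zone both risen targets were highest in IV_PZ (9442 and 7555 TPM), while both fallen ones were highest in II_PZ and III_PZ and lowest in IV_PZ (4287 and 1484 TPM).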

How the data were processed

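Stranded TruSeq mRNA libraries were made from total RNA, per the labels' protocols. The submitters' processing notes name bcl2fastq and kallisto; no version, transcript reference or build is known from the sources used here. For every library the authors deposited, per the file headers, kallisto's estimated counts and TPM for 34220 targets. A deposited TPM table of the series holds 30158 of them with the same values. Target lengths are coding lengths, since 99.49% of them can be divided by 3.

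The estimated counts were rounded. In R 4.3.3, edgeR 4.0.16 was used for a quasi-likelihood test, fitted once to all 19 libraries by group, after TMM scaling and filterByExpr. P-values were adjusted by Benjamini and Hochberg over the 23528 targets tested, with calls at 0.05. Standard errors follow from the test statistic. Library totals ran from 21032804 to 27999020 counts, and floors cover counting error only. Of the tested targets 5589 (23.8%) had counts further than 0.001 from a whole number, which marks reads shared between targets. Named targets are the 2 largest rises and the 2 largest falls in mean TPM among called targets with whole counts and no overlap between the ages. Alternatives used RLE or TPM-scale size factors, DESeq2 1.42.0, limma 3.58.1, other filters and left-out libraries. The edgeR, DESeq2 and limma tests were tested on simulated data with few changed targets, as many up as down, and limma there on CPM. That setting cannot show how the scaling acts where most targets change. The comparison, lists and rules were chosen with earlier results of these data known. The design text calls the replicates biological, and no pair within an age was alike to within sampling noise, as 1 library deposited again would be (chi-square per degree of freedom at least 8.46). Lists of named genes had been planned but were not used, for want of names.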

Additional observations from a re-analysis of the deposited data

How the results depend on the processing

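All 18 alternatives to the edgeR fit kept more falls than rises. The number of calls, 13304 as reported, was 13150 with RLE and 12844 with TPM-scale size factors. With a replicate block it was 12991. Same-numbered libraries of III_PZ and IV_PZ did not deviate together, with correlations of 0.00729, -0.0245 and 0.0204. These values show no pairing by number, but they cannot exclude one. Against a fold of 2, by construction a stricter test, edgeR called 3639 targets, 775 risen and 2864 fallen, all at least 2-fold apart. In limma-trend on log2(TPM + 1), where the pseudocount shrinks low levels, 1130 targets rose at least 2-fold, 70 rose at least 8-fold and 462 fell at least 8-fold. With a library left out there were 11945 to 13151 calls, 5323 to 5987 rises and 6622 to 7164 falls. Of these 1586 to 1690 and 4049 to 4228 were at least 2-fold, and 207 to 264 and 1534 to 1648 at least 8-fold.

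In IV_AZ_si against IV_AZ_if, TPM-scale size factors gave 425 risen targets lower and 1473 fallen targets higher. For targets at least 2-fold changed, 820 risen were higher and 190 lower, and 553 fallen were higher and 1623 lower. With a library left out, 574 to 734 risen were lower and 743 to 905 fallen higher. In II_PZ against I_PZ, TPM-scale size factors gave 388 risen targets higher and 596 fallen lower. For targets at least 2-fold changed the numbers were 204 and 156 for risen and 492 and 144 for fallen. With a library left out they were 351 to 651 and 427 to 665 for risen, and 507 to 862 and 129 to 394 for fallen, while 4.84% to 9.11% of all tested targets were higher and 3.25% to 7.20% lower.

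Targets without a count in IV_PZ numbered 209 from 1 TPM, 35 from 10 TPM, and 113 from 5 TPM over all targets, tested or not. Those without a count in III_PZ numbered 20, 5 and 54. The untested ones were short, with a median effective length of 5.97 and 5.35 bases. With a library left out the numbers were 63 to 91 and 7 to 20.

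Several alternatives were chosen after seeing the data. These are the shares in counts, the restriction to longer targets, the count over untested targets, and the number of targets with a count at 1 TPM or in the series table. In the 2 comparisons above they are all alternatives for the named targets, and the leaving out of any library of the 4 groups there except I_PZ replicate 3. The share of the 10 most abundant targets, IV_PZ minus III_PZ, was -3.05 percentage points of TPM and reversed to 1.59 in counts and to 3.47 among targets with an effective length of 50 bases or more. It was -4.82 ranked by the mean of all libraries, and -3.95 to -2.51 with a library left out. For the 100 most abundant it was 0.903, against -1.18 ranked by that mean, 2.55 in the series table, 2.63 in counts, 5.68 among the longer targets and 0.0208 to 1.45 with a library left out. For the 1000 most abundant it was 3.23. The number of targets with a count differed by -1238, by -1164 at 1 TPM or more, by -1220 in the series table and by -1564 to -1070 with a library left out. Risen and fallen targets of any fold gained and lost 25.1 and -25.0 points of TPM, and 22.6 and -22.3 of counts. Where no construction is named the cause was not tested.

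Aa_G438760.h1 lost its call in the alternatives given above. Without I_PZ replicate 3 its change from 4 to 5 weeks was 3.26 on the log2 scale (adjusted p = 0.00146, edgeR), against 0.48 with that library (adjusted p = 0.747). Each other named target kept its call for the step from 7 to 30 weeks in all 18 alternatives. Shared reads, unnamed identifiers and 3 libraries per age limit all statements, and depth limits those on targets with few counts.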
